A study of Homo sapiens with 40 samples.

Results

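Collagen chains were examined as one gene family in RNA sequencing (RNA-seq) of human breast epithelial and breast cancer cells. The members were chosen by name: every protein-coding gene whose symbol is COL, a number, A and a number. This rule gave 44 of the 19942 protein-coding genes and of the 60708 genes in the count files, and it used no measured value. By class there were 11 fibrillar chains, 6 basement membrane chains, 10 fibril-associated chains (FACIT), 4 transmembrane chains, 5 beaded filament chains, 3 short-chain network chains, 2 multiplexins, 1 anchoring fibril chain and 2 others.

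The 24 libraries fell into 8 groups of 3. MI-spheres were MCF-10A cells, an immortalized, non-malignant breast epithelial line, and MII-spheres were the HRAS-transformed derivative labelled MCF-10A-HRAS, which the study's methods call MCF-10AneoT; both grew as spheres without attachment, either untreated (Ctrl) or with TGFβ1 at 2.5 ng/ml for 16 h (TGFb). MDA-MB-231, a triple-negative breast cancer line, grew attached in serum-containing medium. Its WT libraries were untreated, and the libraries labelled SLUG KO came from MDA-MB-231 cells after CRISPR/Cas9 cutting early in SNAI2, the gene that encodes SLUG. Single-cell colonies were expanded, and the number of clones behind the 3 libraries was not given. A further pair of MDA-MB-231 groups received scramble control siRNA (Csi) or a mix of siRNAs against SMAD2, SMAD3 and SMAD4 (siSMAD) for 48 h, with SNAI2 unedited in both. None of the groups was labelled as receiving TGFβ1 other than the TGFb spheres.

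Collagens are secreted or membrane-bound proteins in which chains wind around each other into a stiff helix, and many types need chains from different genes in one molecule. Fibrillar collagens build the fibrils of connective tissue and are made mostly by fibroblasts, whereas type IV collagen forms the sheet-like network under epithelia. COL7A1 anchors that sheet to the tissue beneath, and COL17A1 spans the membrane of basal epithelial cells in hemidesmosomes, the junctions that hold these cells to the basement membrane. The 6 type IV chains, COL7A1 and COL17A1 are named below as chains of the basement membrane zone, a grouping of 3 of the classes made with the values known. TGFβ is a classical inducer of matrix genes and signals through SMAD2, SMAD3 and SMAD4, and SLUG is a zinc-finger repressor that binds E-boxes.

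The libraries held between 14124688 and 38406952 counted fragments. Within groups, log levels of genes correlated at r of 0.996 or more, except among WT libraries, where the lowest r was 0.954. WT replicate 2 stood apart in collagen RNA: collagen chains took 0.465% of its counts, against 0.200% and 0.177% in WT replicates 1 and 3. Of 26 chains with a WT mean of at least 0.1 FPKM, 21 (80.8%) were more than 1.5-fold higher in WT replicate 2 than in the other WT libraries, against 33.8% of all genes. The SLUG KO results below are therefore given with and without that library. SNAI2 RNA was not lower after editing. It stood at 30.2, 20.9 and 33.7 CPM (counts scaled to library size) in WT and at 63.5, 57.7 and 64.3 CPM in the libraries labelled SLUG KO, so it was higher in the latter (log2 fold change 1.10, SE 0.21, adjusted p = 0.0399, edgeR, or 0.94, SE 0.10, without WT replicate 2). The SNAI2 call was made in 4 of 11 alternative analyses. A small insertion or deletion need not lower RNA, so the RNA level does not check that label. The paper reports that its knockout clones were checked by ddPCR and immunoblotting. SMAD2, SMAD3 and SMAD4 were lower in siSMAD by log2 fold changes of -1.92, -0.69 and -1.72. HRAS rose from 40.7 ± 1.01 to 220 ± 4.1 CPM (SD, n = 3) between untreated MI- and MII-spheres.

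Epithelial markers matched the labelled cell types in the spheres and in part in MDA-MB-231. The summed level of 11 mammary epithelial and basal genes lay between 930 and 1892 FPKM in the sphere libraries and between 334 and 520 FPKM in MDA-MB-231, where KRT5 and KRT6A stayed under 0.1 FPKM in every group. In untreated MII-spheres TP63 was also under 0.1 FPKM. The summed level of 9 fibroblast and stromal genes lay between 1.35 and 7.42 FPKM over all libraries, with 3.94 to 6.32 in WT, 4.68 to 5.46 in SLUG KO, 7.2 to 7.42 in Csi and 7.07 to 7.31 in siSMAD. PDGFRA and THY1 of this list were under 0.1 FPKM in every group, whereas PDGFRB reached 1 FPKM in all 4 MDA-MB-231 groups, and ACTA2 in WT, LUM in SLUG KO and TAGLN in Csi and siSMAD did so too. CDH1 of the epithelial list differed between groups of this line, at 0.253, 0.123 and 0.232 FPKM in WT and 3.1, 2.84 and 2.83 FPKM in Csi. Leukocyte markers summed to at most 0.562 FPKM and endothelial markers to at most 15.5 FPKM. Of the endothelial list, PECAM1 stood at 13.3, 13.7 and 13.6 FPKM in untreated MII-spheres. CDH5 stood at 3.77, 3.67 and 3.52 FPKM in untreated MI-spheres.

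The 6 type IV chains are encoded by 3 head-to-head gene pairs, and their start regions are shown because partners of a pair moved together in several comparisons below. Bases are from RefSeq on GRCh38.p14, 5′ to 3′, in lower case, with matches to any of 3 motifs in capitals: the SMAD box CAGAC, the SNAIL-family E-box CAGGTG and the CCAAT box CCAAT, each searched on both strands. COL4A1 (minus strand, chr13:110148963-110307157) and COL4A2 (plus strand, chr13:110305812-110513209) have RefSeq starts 126 bases apart, and the plus strand from chr13:110307128-110307313 covers that gap with 30 bases of each transcript.
COL4A1 and COL4A2: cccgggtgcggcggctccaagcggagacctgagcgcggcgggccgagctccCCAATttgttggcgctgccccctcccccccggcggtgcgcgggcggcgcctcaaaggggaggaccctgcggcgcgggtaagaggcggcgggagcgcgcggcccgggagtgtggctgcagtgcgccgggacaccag
COL4A4 (minus strand, chr2:227002714-227164453) and COL4A3 (plus strand, chr2:227164624-227314792) are separated by 170 bases in the GENCODE annotation, shown on the plus strand with the first 30 bases of COL4A3 as chr2:227164454-227164653.
COL4A4 and COL4A3: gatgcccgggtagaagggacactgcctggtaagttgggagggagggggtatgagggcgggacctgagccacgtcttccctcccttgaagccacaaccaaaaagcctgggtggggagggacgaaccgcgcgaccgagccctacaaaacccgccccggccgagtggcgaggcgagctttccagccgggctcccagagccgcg
COL4A6 (minus strand, chrX:108155607-108439497) and COL4A5 (plus strand, chrX:108439838-108697545) are 340 bases apart, and the window of COL4A5 from 250 bases before to 30 bases after its start is chrX:108439588-108439867 on the plus strand.
COL4A5: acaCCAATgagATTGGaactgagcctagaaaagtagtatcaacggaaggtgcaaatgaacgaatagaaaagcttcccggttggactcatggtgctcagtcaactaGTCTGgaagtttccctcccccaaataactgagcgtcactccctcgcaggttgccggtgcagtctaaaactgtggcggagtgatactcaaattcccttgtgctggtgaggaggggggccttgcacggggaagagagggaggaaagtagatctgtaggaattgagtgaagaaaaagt
COL17A1 (minus strand, chr10:104031286-104085880), the chain with the highest level per length in MI-spheres, has the same window at chr10:104085851-104086130 on the minus strand.
COL17A1: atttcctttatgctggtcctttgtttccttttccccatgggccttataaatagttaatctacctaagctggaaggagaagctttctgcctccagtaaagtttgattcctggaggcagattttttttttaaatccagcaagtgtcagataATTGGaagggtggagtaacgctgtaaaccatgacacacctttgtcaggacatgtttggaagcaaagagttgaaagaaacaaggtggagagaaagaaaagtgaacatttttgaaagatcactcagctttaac

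A RefSeq start window was matched for 32 of the 44 chains, in 44 windows. The SMAD box occurred in 38.6% of these collagen windows and in 42.7% of all 35116 windows of the same 280 bases. The E-box occurred in 11.4% against 19.2%, and the CCAAT box in 27.3% against 33.6%. None of the 3 motifs was thus more frequent in collagen windows than in all windows. The stretch between COL4A1 and COL4A2 held a CCAAT match and no match to the other motifs, and that between COL4A4 and COL4A3 held no match to any of the 3.

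Levels are compared between chains as FPKM, which is CPM divided by the exon length in kilobases, since collagen genes differ in length. Of the 44 chains, 23 reached 1 FPKM in every library of at least 1 group. COL17A1, COL4A5, COL6A1 and COL7A1 did so in all 24 libraries, whereas COL11A1, COL14A1, COL19A1, COL25A1, COL6A5 and COL9A1 stayed under 0.1 FPKM throughout. The summed collagen level was 68.9 ± 1.24 FPKM in untreated and 138 ± 2 FPKM in TGFb-treated MI-spheres (SD, n = 3). In MII-spheres it was 52.5 ± 0.0591 and 59.5 ± 1.51 FPKM. The MDA-MB-231 libraries held more collagen RNA, with 250 ± 157 FPKM in WT, 214 ± 18 FPKM in SLUG KO, 319 ± 10.5 FPKM in Csi and 315 ± 17.1 FPKM in siSMAD. The lines also differed in culture form and medium, so line and culture cannot be told apart in this contrast.

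**Figure D1:**
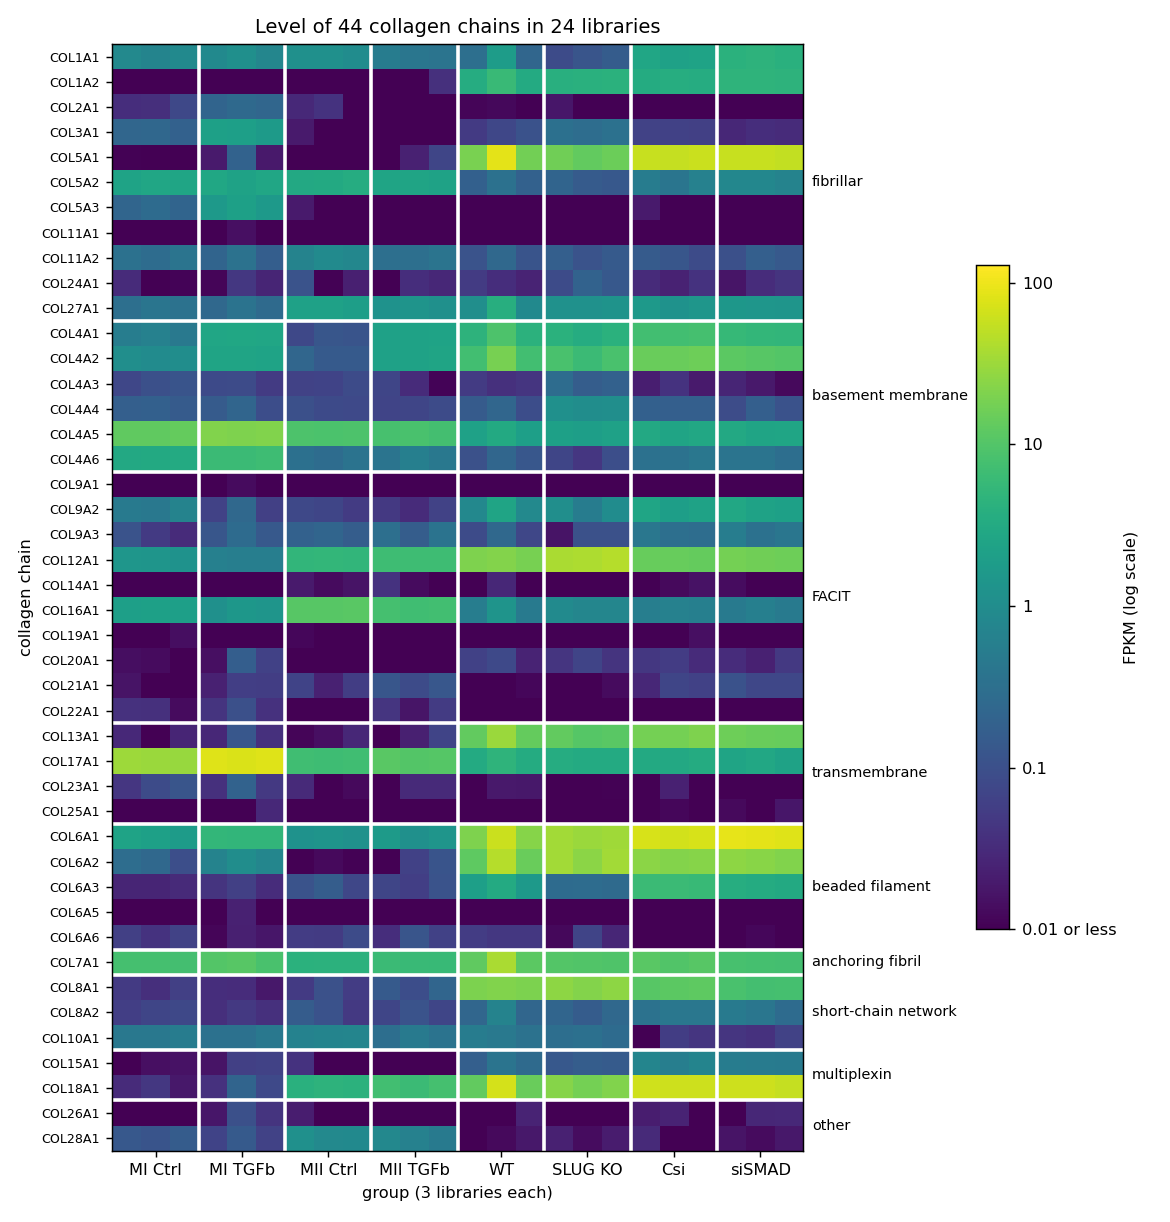
Level of all 44 chains (rows, ordered by class) in 24 libraries (columns, 3 per group) as FPKM on a logarithmic colour scale, with values of 0.01 or less in the darkest colour. The sphere libraries are bright for COL17A1, COL4A5 and COL7A1, the MDA-MB-231 libraries for COL5A1, COL6A1, COL6A2, COL8A1, COL12A1, COL13A1 and COL18A1, and WT replicate 2 is brighter than its neighbours in many rows.

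The lines differed in the shares of the classes. In untreated MI-spheres the transmembrane class made up 45.3% of summed collagen FPKM (range over libraries 44.4 to 46.3%), nearly all of it COL17A1 at 31.1 ± 1.23 FPKM. Basement membrane chains followed with 26.2%, led by COL4A5 at 13.1 ± 0.374 FPKM, and COL7A1 stood at 7.75 ± 0.168 FPKM. The leading chains in this line were therefore those of the epithelial basement membrane zone.

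In untreated MII-spheres FACIT chains, which sit on the surface of fibrils, made up 31.4% of the summed level, compared with 5.98% for untreated MI-spheres. COL16A1, a FACIT chain, led with 11.1 ± 0.13 FPKM, followed by COL4A5 at 8.95 ± 0.191 FPKM and COL17A1 at 7.01 ± 0.26 FPKM. Fibrillar chains took 14% in MII- and 6.66% in MI-spheres. The basement membrane class took 18.5%, the transmembrane class 13.4% and COL7A1 8.22% in untreated MII-spheres. Chains of the basement membrane zone were thus among the leading ones in this line too.

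In Csi libraries the beaded filament class, type VI collagen, made up 31.6% of the summed level, fibrillar chains 20.7% and multiplexins 20.1%. COL6A1 stood at 71.3 ± 3.03 FPKM and COL18A1, the multiplexin whose C-terminal fragment is endostatin, at 63.5 ± 1.87 FPKM. COL5A1, a fibrillar chain that regulates fibril diameter, stood at 57.7 ± 2.37 FPKM. In WT the order of the chains depended on the library. COL5A1 stood at 18.8, 88.3 and 17.3 FPKM there, COL18A1 at 13.3, 69.9 and 15 FPKM and COL6A1 at 20.4, 59.8 and 22.8 FPKM, with WT replicate 2 far above the others. In WT replicates 1 and 3 COL12A1 (20.4 and 18.1 FPKM) and COL8A1 (19.8 and 20 FPKM) stood above COL5A1 and COL18A1. In SLUG KO libraries COL12A1, a FACIT chain, led with 40.9 ± 3.59 FPKM.

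Chains that assemble with each other were often present in unequal amounts. Type I collagen normally combines COL1A1 and COL1A2, and type V combines COL5A1 and COL5A2. In the sphere libraries COL1A1 stood between 3.46 and 10.4 CPM while COL1A2 stayed at or under 0.407 CPM. COL5A2 stood between 16.8 and 25.2 CPM there, while COL5A1 stayed under 1 CPM in every sphere library but MI TGFb replicate 2, where it was at 2.15 CPM. Spheres thus carried RNA of 1 partner of each pair almost alone.

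In MDA-MB-231 the imbalance of type V was the other way. The ratio of COL5A1 to COL5A2 by FPKM was 111.3, 140 and 93.4 in Csi libraries and 73.7, 72.4 and 79.7 in siSMAD libraries. The ratio of COL1A1 to COL1A2 was 0.818, 0.62 and 0.69 in Csi but 0.0899, 0.304 and 0.0692 in WT. The share of COL1A1 thus also differed between these control groups of one line. Csi cells had received control siRNA and WT cells were untreated, so transfection and any difference in batch cannot be told apart.

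For type IV, the ratio of COL4A1 to COL4A2 by FPKM was 0.519, 0.675 and 0.448 in untreated MI-spheres and 1.08, 1.12 and 1.13 with TGFb. In MII-spheres it was 0.344, 0.871 and 0.815 untreated and 1.02, 1 and 0.963 with TGFb. In the 12 MDA-MB-231 libraries it lay between 0.479 and 0.606. The TGFb libraries of both sphere lines thus lay above all others in this ratio. Type IV α1 and α2 chains assemble in unequal numbers, with the α1 chain in excess.

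Over the 8 group means, log levels of head-to-head partners correlated at r = 0.98 for COL4A1 with COL4A2, 0.88 for COL4A6 with COL4A5 and 0.70 for COL4A4 with COL4A3. The neighbours COL6A1 and COL6A2, on the same strand of chromosome 21, gave r = 0.97. COL3A1 and COL5A2, tail to tail on chromosome 2, gave r = -0.12. These are descriptions over 8 points that share lines and batches, with no test.

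The first comparison asked how collagen RNA differed between untreated MII- and MI-spheres, that is, with and without transformation by HRAS. Each state was represented by a single line, so HRAS and other differences between the lines cannot be told apart. Of 44 chains, 26 passed the low-count filter; 11 were higher and 12 lower in MII-spheres at an adjusted p under 0.05 (edgeR quasi-likelihood test, Benjamini-Hochberg over all genes). Among all genes tested, 31.7% were higher and 32.5% lower, against 42.3% and 46.2% of the tested chains. COL3A1, COL5A3 and COL6A2 had 3, 2 and 3 counts over the 3 MII libraries and passed the filter through MI-spheres only. COL18A1 had 18 counts over the 3 MI libraries and passed through MII-spheres only. Chains that pass in this way are likely to be called, so these shares are a description and no test. The median log2 fold change of the tested chains was -0.10, against 0.0169 for all genes. The 18 chains that did not pass had at most 16 counts and 0.156 FPKM in any of these libraries.

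Of the 8 chains of the basement membrane zone, 7 were lower and none higher, against 32.5% lower and 31.7% higher among all genes. This set was formed with the values known and holds head-to-head pairs, so counts over it are a description and no test. COL17A1 stood at 227, 215 and 210 CPM in MI- and at 50, 46.9 and 50.1 CPM in MII-spheres, a log2 fold change of -2.15 (SE 0.04, adjusted p = 1.34e-42). COL4A6 stood at 28.3, 29 and 30.6 against 3.04, 2.68 and 3.39 CPM, a log2 fold change of -3.28 (SE 0.10, adjusted p = 1.20e-33). COL4A2 fell by 2.62 and COL4A1 by 2.31 on the log2 scale. Together 5 of 6 type IV chains were lower and none higher, and COL4A3 did not pass the test (-0.41, adjusted p = 0.274). COL7A1 was lower as well (log2 fold change -0.83, SE 0.05, adjusted p = 3.22e-21).

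The higher chains came from other classes. COL18A1 stood at 0.27, 0.385 and 0.156 CPM in MI- and at 33.7, 38.5 and 36.4 CPM in MII-spheres, with 18 counts over the 3 MI libraries against 2314 over the 3 MII libraries. Its ratio was 135, with a 95% interval of 84.9 to 227 that covers counting error only (adjusted p = 3.96e-41). COL18A1 shares 18.5% of its exon bases with SLC19A1, and reads over both genes were not counted for either.

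The FACIT chains COL16A1 (19.1, 20 and 19.6 against 103.1, 101.5 and 103.9 CPM) and COL12A1 (27.1, 25.9 and 23.3 against 94.8, 99 and 93.5 CPM) were higher in MII-spheres by 2.41 (SE 0.06) and 1.92 (SE 0.06) on the log2 scale. The fibrillar chain COL27A1 was higher by 2.62 (SE 0.10, adjusted p = 5.32e-31) and COL28A1, a chain with von Willebrand domains, by 2.83 (SE 0.21). The remaining higher chains were COL6A3 (4.25-fold), COL9A3 (2.85-fold), COL11A2 (2.48-fold), COL10A1 (1.54-fold), COL1A1 (1.33-fold) and COL5A2 (1.27-fold). The COL10A1 call was not made with DESeq2 (adjusted p = 0.0972) and was made in 11 of 12 alternatives.

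Some chains were nearly lost in MII-spheres. COL3A1, the fibrillar chain of soft connective tissue, had 98 counts over the 3 MI libraries and 3 over the 3 MII libraries, a ratio of 31.2 (95% counting interval 10.4 to 154). COL5A3 had 38, 38 and 28 counts in the MI libraries and 2, 0 and 0 in the MII libraries, a ratio of 49.7 (13.4 to 416), and COL6A2 had 77 against 3 counts, a ratio of 24.5 (8.08 to 122). The other lower chains were COL9A2 (7.66-fold), COL4A4 (1.89-fold), COL6A1 (1.68-fold) and COL4A5 (1.45-fold).

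The next comparison asked which chains responded to TGFβ1 in MI-spheres. Of 24 chains tested, 12 were higher and 3 lower with TGFb, that is 50% and 12.5%, against 28.7% and 27.4% of all genes. Their median log2 fold change was 0.42, against -0.0165 for all genes. The 20 chains not tested had at most 48 counts and 0.212 FPKM in any library. Several of them were highest in MI TGFb replicate 2. Over TGFb replicates 1, 2 and 3, COL5A1 had 4, 48 and 5 counts, COL20A1 3, 42 and 16, and COL18A1 6, 40 and 16. The summed level of the fibroblast markers was 2.94 to 3.11 FPKM untreated and 4.94 to 5.47 FPKM with TGFb in MI-spheres. In MII-spheres it was 1.35 to 1.44 against 1.61 to 1.91 FPKM. The members of this list went in both directions. DCN, FAP and ACTA2 reached 1 FPKM with TGFb in MI-spheres. TAGLN fell there from 0.542, 0.544 and 0.42 to 0.167, 0.246 and 0.214 FPKM, and LUM from 0.476, 0.36 and 0.389 to 0.205, 0.352 and 0.271 FPKM. In MII-spheres FAP rose from 0.0665, 0.096 and 0.104 to 0.475, 0.593 and 0.487 FPKM. Epithelial and basal markers summed to 1075 to 1105 against 1780 to 1892 FPKM in MI-spheres and to 930 to 943 against 1450 to 1533 FPKM in MII-spheres. Endothelial markers summed to 4.79 to 5.24 against 1.78 to 1.97 FPKM in MI-spheres and to 15.2 to 15.5 against 12.8 to 14.2 FPKM in MII-spheres, so that they also differed between the untreated lines. The part of any of these lists in the collagen results was not tested.

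**Figure D2:**
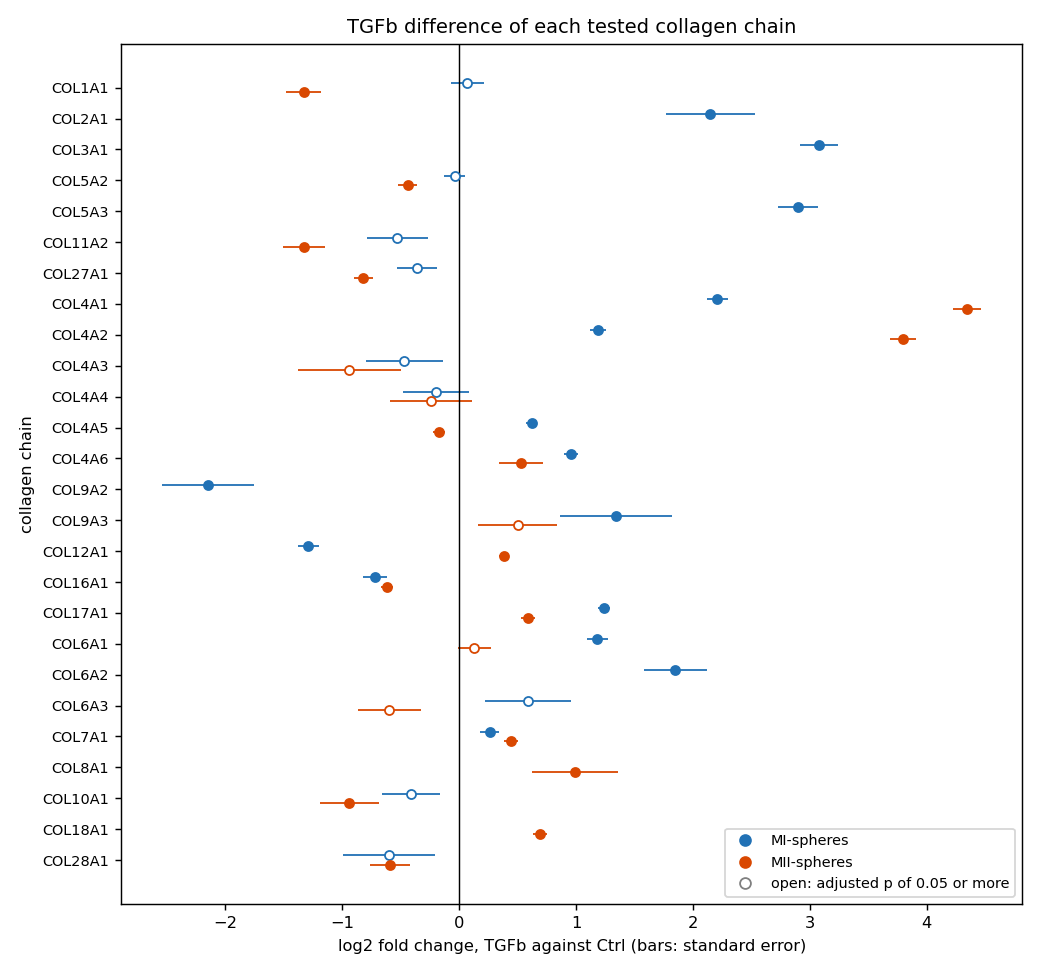
Log2 fold change of TGFb against Ctrl (horizontal axis, with standard errors) for every chain tested in MI-spheres (blue) or MII-spheres (orange), ordered by class; filled points passed the test and open points did not. COL4A1 and COL4A2 lie far to the right in MII-spheres, COL3A1 and COL5A3 are shown for MI-spheres only, and COL12A1 lies left of 0 in MI- and right of 0 in MII-spheres.

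Of the 8 chains of the basement membrane zone, 6 rose in MI-spheres, against 28.7% of all genes. The set was formed with the values known and holds head-to-head pairs, so this count is a description and no test. COL17A1 stood at 227, 215 and 210 CPM untreated and at 555, 516 and 559 CPM with TGFb, a log2 fold change of 1.24 (SE 0.05, adjusted p = 2.60e-14). COL4A1 stood at 8.21, 9.34 and 6.8 CPM untreated and at 40, 40.4 and 39.6 CPM with TGFb (2.21, SE 0.09, adjusted p = 3.34e-14), and COL4A2 rose from 19.6 ± 1.32 to 47.5 ± 1.26 CPM (1.19, SE 0.07, adjusted p = 1.48e-11). The X-linked pair rose less, COL4A6 by 0.96 (SE 0.06) and COL4A5 by 0.62 (SE 0.05). The pair COL4A3 and COL4A4 gave -0.47 and -0.20 and did not pass the test. COL7A1 rose by 0.26 (SE 0.08, adjusted p = 0.00568).

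Fibrillar chains were divided in MI-spheres. COL3A1 stood at 1.54, 1.59 and 1.3 CPM untreated and at 14.5, 13.8 and 11.7 CPM with TGFb, an 8.47-fold rise (log2 fold change 3.08, SE 0.16, adjusted p = 7.11e-13). COL5A3 stood at 1.47, 1.83 and 1.45 against 11.4, 14.7 and 11.4 CPM (2.90, SE 0.17, adjusted p = 5.64e-12). COL2A1, the main chain of cartilage, rose 4.44-fold from a low 0.33 ± 0.163 CPM. By contrast COL1A1, the fibrillar chain most used as a marker of matrix production, stood at 7.79, 6.45 and 8.1 CPM untreated and at 7.9, 9.9 and 6.98 CPM with TGFb (0.07, SE 0.14, adjusted p = 0.702), with overlapping groups. COL5A2 gave -0.04 (SE 0.09), COL11A2 -0.53 (SE 0.26) and COL27A1 -0.36 (SE 0.17), none past the test.

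Of the type VI chains, COL6A1 rose by 1.18 (SE 0.09, adjusted p = 8.76e-10) and COL6A2 by 1.85 (SE 0.27, adjusted p = 5.77e-06), while COL6A3 gave 0.59 (SE 0.37, adjusted p = 0.181). FACIT chains went mostly down. COL12A1 fell from 25.5 ± 1.95 to 11 ± 0.46 CPM (-1.29, SE 0.09, adjusted p = 1.03e-10) and COL16A1 from 19.6 ± 0.446 to 12.5 ± 1.59 CPM (-0.72, SE 0.10, adjusted p = 2.07e-06). COL9A2 fell 4.44-fold, and its partner in type IX, COL9A3, rose 2.52-fold from 0.312 ± 0.202 CPM. The COL9A3 call was made in 7 of 11 alternative analyses.

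In MII-spheres 21 chains were tested, of which 8 were higher and 8 lower with TGFb. These shares, 38.1% each, compare with 29.9% higher and 27.6% lower among all genes. The median log2 fold change was -0.17 over the tested chains and -0.0179 over all genes.

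The type IV pair COL4A1 and COL4A2 had the largest rise of any chain in this line. COL4A1 stood at 1.12, 1.84 and 1.72 CPM untreated and at 33.1, 34.6 and 34.8 CPM with TGFb, a 20.41-fold rise (log2 fold change 4.35, SE 0.12, adjusted p = 1.57e-34). COL4A2 stood at 4.3, 2.78 and 2.78 against 42.8, 45.4 and 47.5 CPM, a 13.95-fold rise (3.80, SE 0.11, adjusted p = 5.72e-35). With TGFb both lines thus reached similar levels of the pair, from lower starting levels in MII-spheres. COL4A6 rose by 0.53 (SE 0.19), a call made in 9 of 12 alternatives, whereas COL4A5 fell by 0.17 (SE 0.05, adjusted p = 0.00185).

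Other chains that rose in MII-spheres were COL18A1 (33.7, 38.5 and 36.4 against 60.8, 54.1 and 66.1 CPM, 0.69, SE 0.06), COL17A1 (50, 46.9 and 50.1 against 80.7, 71.7 and 74 CPM, 0.59, SE 0.06), COL7A1 (0.44, SE 0.06) and COL12A1 (0.38, SE 0.04). COL8A1, a short-chain collagen, was called higher at 0.99 (SE 0.37) although its libraries overlapped, and in 7 of 11 alternatives.

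All 4 fibrillar chains tested in MII-spheres were lower with TGFb, against 27.6% of all genes. COL1A1 fell 2.51-fold, COL11A2 2.51-fold, COL27A1 1.77-fold and COL5A2 1.36-fold. COL27A1 for example stood at 31.2, 31.2 and 27.9 CPM untreated and at 17.2, 19.1 and 16.1 CPM with TGFb (-0.82, SE 0.08, adjusted p = 6.75e-13). COL16A1 fell by 0.62 (SE 0.05), and COL10A1, the hypertrophic cartilage collagen, and COL28A1 were also lower (1.92-fold and 1.51-fold). COL3A1 and COL5A3, which rose in MI-spheres, had 1 and 0 counts over the 3 TGFb libraries of MII-spheres, whereas those of MI-spheres held 850 and 804. The COL5A3 level was at least 186-fold higher in TGFb-treated MI-spheres, against a floor of 3 counts over the group.

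**Figure D3:**
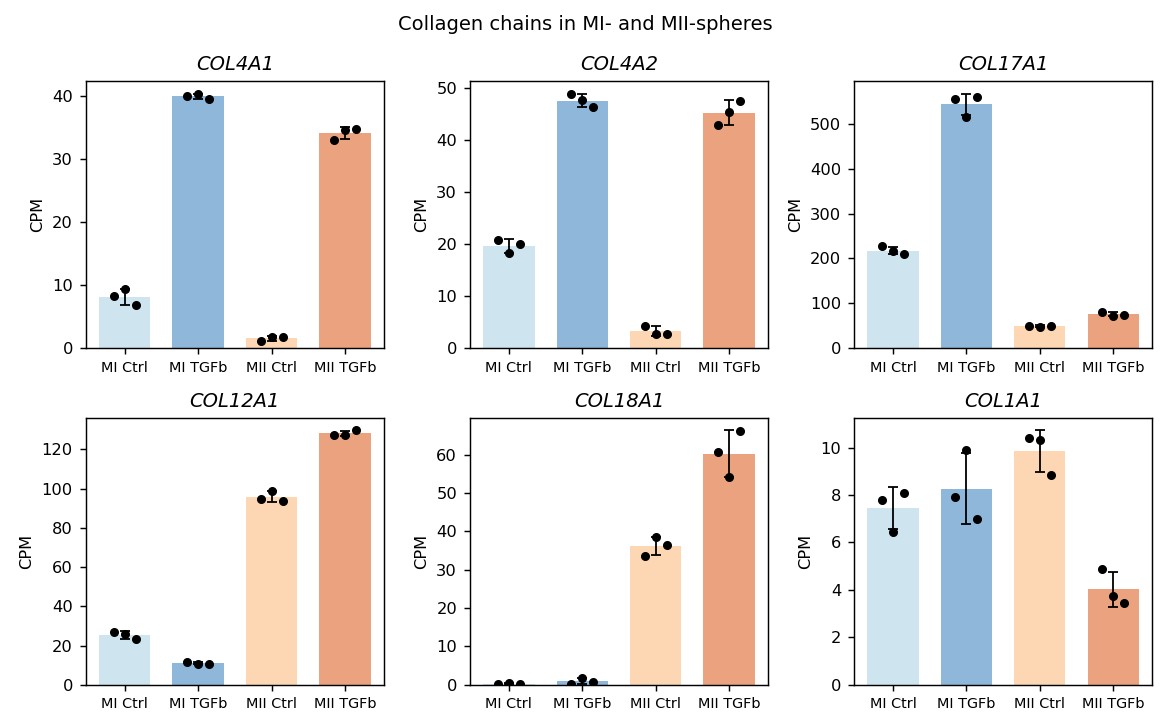
Level of 6 chains in CPM (vertical axis, starting at 0) in the 4 sphere groups; bars are means of 3 libraries, points single libraries and whiskers 1 SD. COL4A1 and COL4A2 reach similar TGFb levels in both lines, COL18A1 is near 0 in MI-spheres, and COL1A1 falls with TGFb in MII-spheres but overlaps between the MI groups.

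The difference between the 2 responses was tested as an interaction over the 12 sphere libraries. Of 29 chains tested, 4 responded more positively in MII- than in MI-spheres and 6 more negatively, that is 13.8% and 20.7%, against 12.6% and 9.75% of all genes. COL4A2 (2.62, SE 0.14, adjusted p = 1.06e-17) and COL4A1 (2.15, SE 0.17, adjusted p = 1.11e-12) had a stronger rise in MII-spheres. COL12A1, which fell in MI- and rose in MII-spheres, gave 1.69 (SE 0.09, adjusted p = 1.93e-17). COL4A5, which rose in MI- and fell in MII-spheres, gave -0.78 (SE 0.07, adjusted p = 7.03e-12). COL17A1 rose in both lines and more strongly in MI-spheres (-0.63, SE 0.07, adjusted p = 6.39e-09). COL6A1 (-1.04, SE 0.17) and COL1A1 (-1.38, SE 0.21) also had the lower response in MII-spheres. COL3A1 (adjusted p = 0.0507) and COL5A3 (adjusted p = 0.0698) did not pass, with counts near 0 in MII-spheres.

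Genes that modify, fold, trim, cross-link or bind collagen were described with the chains, as 42 genes in 5 lists. With TGFb, 23 of 36 tested were higher and 3 lower in MI-spheres, and 22 of 34 were higher and 2 lower in MII-spheres. These shares, 63.9% and 8.33% in MI- and 64.7% and 5.88% in MII-spheres, compare with 28.7% and 27.4%, and with 29.9% and 27.6%, of all genes. The list of prolyl and lysyl modification enzymes, which hydroxylate or glycosylate the chains in the endoplasmic reticulum, had 12 of 12 tested genes higher in MI-spheres, and the middle value of their log2 fold changes was 0.66. In MII-spheres 11 of its 12 tested genes were higher and P3H2 was the 1 lower gene, around a median of 0.53. The P3H2 call was made in 8 of 12 alternatives. Elsewhere in the 5 lists, higher calls in MII-spheres were made in 4 of 12 alternatives for FKBP10 and 6 of 12 for FKBP14. In MI-spheres that of ADAMTS14 was made in 6 of 12. P4HA1, the catalytic subunit of prolyl 4-hydroxylase, stood at 105.1, 109.4 and 106.3 CPM untreated and at 470.5, 438 and 539.5 CPM with TGFb in MI-spheres, a log2 fold change of 2.09 (SE 0.06, adjusted p = 7.01e-17). In MII-spheres it stood at 95, 90.6 and 91.3 against 275, 277 and 277 CPM (1.55, SE 0.04, adjusted p = 2.65e-36). The interaction test gave P4HA1 a weaker response in MII-spheres (-0.53, SE 0.07, adjusted p = 3.37e-07).

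The lysyl hydroxylases PLOD1 and PLOD2 rose by 1.33 and 1.26 in MI- and by 1.06 and 1.05 in MII-spheres on the log2 scale. LOXL2, a cross-linking lysyl oxidase, rose by 1.99 and 1.51, and PCOLCE2, an enhancer of propeptide removal, by 2.05 and 1.74. Of the collagen receptors, 2 of 7 tested were higher and 1 lower in MI-spheres, and 2 of 6 were higher and 1 lower in MII-spheres. The shares of higher receptors, 28.6% and 33.3%, were near the 28.7% and 29.9% of all genes. The shares of lower receptors were 14.3% and 16.7%, against 27.4% and 27.6% of all genes. ITGB1 rose by 0.25 in MI- and 0.28 in MII-spheres. ITGA2 rose by 0.24 in MI- and fell by 0.43 in MII-spheres, ITGA11 fell by 1.5 in MI-spheres and DDR1 rose by 0.15 in MII-spheres. Between the untreated lines 11 of 36 genes (30.6%) were higher and 18 (50%) lower in MII-spheres, against 31.7% and 32.5% of all genes, so the share of higher genes was near that of all genes. FKBP10, a collagen chaperone, stood at 1.47, 1.3 and 1.51 CPM in MI- and at 45.8, 42.4 and 41.4 CPM in MII-spheres (4.92, SE 0.11, adjusted p = 2.27e-41). P3H2 (3.67) and LOXL4 (3.32) were also higher in MII-spheres, and 4 of 5 cross-linking genes were lower, LOXL1 by 1.78 and LOXL2 by 1.54.

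In MDA-MB-231, the libraries labelled SLUG KO were compared with WT to ask which chains differed between edited and parental cells. The edited cells were expanded from single-cell colonies, so editing of SNAI2 and differences between clones cannot be told apart. Of 31 chains tested, 4 were higher and 1 lower in SLUG KO, that is 12.9% and 3.23%, against 1.45% and 1.89% of all genes. The median log2 fold change was -0.54 over the tested chains and -0.0519 over all genes. Without WT replicate 2, 10 chains were higher and 4 lower, that is 32.3% and 12.9%, against 16.8% and 14.4% of all genes in that fit. The median of the chains was then 0.00583, against -0.0103 for all genes, so the lower median with all libraries was not seen without WT replicate 2. Without any 1 of WT replicate 1 or SLUG KO replicates 1, 2 and 3 the calls numbered 2, and without WT replicate 3 they numbered 3.

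**Figure D4:**
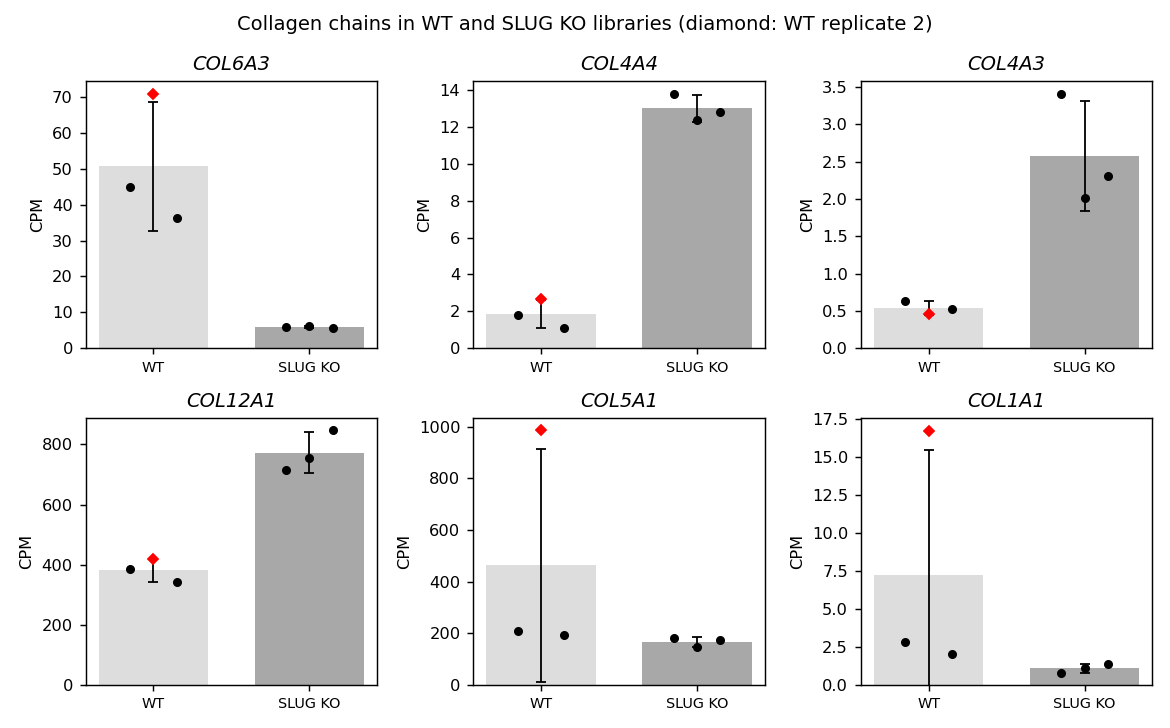
Level of 6 chains in CPM (vertical axis, starting at 0) in WT and SLUG KO libraries; bars are means of 3 libraries, points single libraries, whiskers 1 SD, and the diamond marks WT replicate 2. COL6A3 is lower and COL4A4, COL4A3 and COL12A1 are higher in every SLUG KO library, while COL5A1 and COL1A1 are high in WT replicate 2 alone.

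COL6A3, the long α3 chain of type VI collagen, stood at 44.9, 71 and 36.4 CPM in WT and at 5.8, 6.07 and 5.61 CPM in SLUG KO. The groups did not overlap, and the log2 fold change was -3.15 (SE 0.29, adjusted p = 0.0033), or -2.82 (SE 0.13, adjusted p = 2.25e-10) without WT replicate 2. Its partners did not pass the test: COL6A1 gave -0.09 and COL6A2 0.38 with all libraries (adjusted p = 0.916 and 0.696), and both were higher in SLUG KO without WT replicate 2 (0.59 and 1.21). The ratio of COL6A3 to COL6A1 by FPKM was 0.102, 0.0552 and 0.0743 in WT and 0.00781, 0.00929 and 0.00778 in SLUG KO.

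The head-to-head pair COL4A4 and COL4A3, minor type IV chains known from kidney and lung basement membranes, was higher in SLUG KO. COL4A4 stood at 1.8, 2.65 and 1.09 CPM in WT and at 13.8, 12.4 and 12.8 CPM in SLUG KO (2.78, SE 0.34, adjusted p = 0.00748), or 3.14 (SE 0.20) without WT replicate 2. COL4A3 stood at 0.638, 0.456 and 0.523 against 3.41, 2.01 and 2.31 CPM (2.22, SE 0.33, adjusted p = 0.0151), or 2.13 without that library. The other type IV chains, COL4A1, COL4A2, COL4A5 and COL4A6, did not pass the test in either form.

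COL12A1 stood at 385, 418 and 341 CPM in WT and at 714, 756 and 847 CPM in SLUG KO (0.99, SE 0.18, adjusted p = 0.0297), or 1.08 (SE 0.11) without WT replicate 2. COL3A1 rose from 0.52 ± 0.194 to 2.16 ± 0.18 CPM (2.03, SE 0.34, adjusted p = 0.0221), or by 2.02 (SE 0.36) without that library. The calls for COL6A3 and COL4A4 were made in 11 of 11 alternatives, and those for COL4A3 in 6 of 11, COL3A1 in 5 of 10 and COL12A1 in 4 of 11.

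For several chains WT replicate 2 set the value. COL5A1 stood at 210, 986 and 193 CPM in WT and at 181, 145 and 173 CPM in SLUG KO, with a log2 fold change of -1.51 (SE 0.62, adjusted p = 0.25), or -0.29 (SE 0.10, adjusted p = 0.0338) without that library. COL18A1 stood at 113, 592 and 127 against 192, 148 and 183 CPM. Its log2 fold change was -0.70 (adjusted p = 0.57) with all libraries and turned to 0.53 (adjusted p = 0.00107) without WT replicate 2. COL1A1 stood at 2.85, 16.7 and 2.05 against 0.794, 1.1 and 1.4 CPM (-2.74, adjusted p = 0.143, or -1.18, adjusted p = 0.00861, without it). COL24A1, COL16A1 and COL8A1 (higher) and COL7A1 (lower) were likewise called without WT replicate 2 and not with all libraries.

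Of the 39 tested genes that modify or bind collagen, 1 was higher and 1 lower in SLUG KO (2.56% each, against 1.45% and 1.89% of all genes). Without WT replicate 2, 12 were higher and 5 lower, that is 30.8% and 12.8%, against 16.8% and 14.4% of all genes. The further genes called in that fit included ADAMTS14 (1.32), the receptor DDR1 (0.51) and LOXL2 (0.50), which were higher, and the receptor subunits ITGA11 (-0.87) and ITGA10 (-0.66), which were lower. LOXL4, a lysyl oxidase, stood at 106.3, 112.3 and 112.6 CPM in WT and at 376, 368 and 380 CPM in SLUG KO (1.74, SE 0.15, adjusted p = 0.00264), or 1.76 (SE 0.09) without WT replicate 2. ADAMTS3, a procollagen N-propeptidase, had 52, 33 and 57 counts in WT and 0 in each SLUG KO library. It was at least 43.3-fold lower in SLUG KO, against a floor of 3 counts over the group (adjusted p = 0.00775, or 2.3e-06 without WT replicate 2).

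The last comparison asked which chains differed after knockdown of SMAD2, SMAD3 and SMAD4 in MDA-MB-231 without added TGFβ1. Of 29 chains tested, 5 were higher and 8 lower in siSMAD, that is 17.2% and 27.6%, against 16.3% and 19.7% of all genes. The median log2 fold change was -0.06, against 0.00381 for all genes. The differences were smaller than in spheres, with no chain beyond 1.82-fold among those called.

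**Figure D5:**
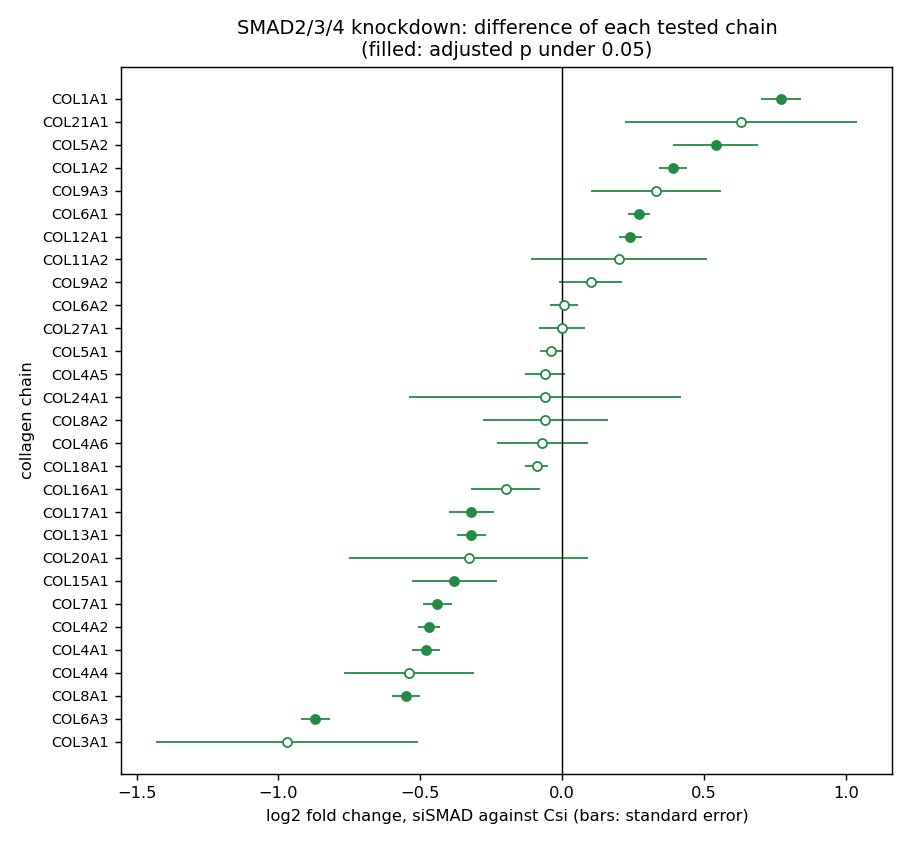
Log2 fold change of siSMAD against Csi (horizontal axis, with standard errors) for the 29 chains tested, sorted by value; filled points passed the test. COL6A3, COL8A1, COL4A1, COL4A2 and COL7A1 are on the lower side and COL1A1, COL5A2 and COL1A2 on the higher side.

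COL6A3 stood at 135, 134 and 128 CPM in Csi and at 78.9, 71.9 and 67.9 CPM in siSMAD (-0.87, SE 0.05, adjusted p = 2.73e-15). COL6A1 by contrast stood at 407, 376 and 401 against 494, 488 and 451 CPM (0.27, SE 0.04, adjusted p = 3.85e-06), and COL6A2 gave 0.0067 (SE 0.05). The ratio of COL6A3 to COL6A1 fell from between 0.0822 and 0.092 in Csi to between 0.0379 and 0.0411 in siSMAD.

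Of the 7 tested chains of the basement membrane zone, a set formed with the values known, 4 were lower with the knockdown, against 19.7% of all genes. COL4A1 stood at 108.2, 105.4 and 113.4 CPM in Csi and at 82.8, 76.5 and 75.2 CPM in siSMAD (-0.48, SE 0.05, adjusted p = 5.33e-10), and COL4A2 at 283, 281 and 307 against 227, 209 and 196 CPM (-0.47, SE 0.04, adjusted p = 5.80e-10). COL7A1 fell by 0.44 (SE 0.05, adjusted p = 1.14e-08) and COL17A1 by 0.32 (SE 0.08, adjusted p = 0.00172). COL4A4 (-0.54, adjusted p = 0.0735), COL4A5 (-0.06) and COL4A6 (-0.07) did not pass the test. COL8A1 fell by 0.55 (SE 0.05) and COL13A1, a transmembrane chain, by 0.32 (SE 0.05). COL15A1 was called lower at -0.38 (SE 0.15, adjusted p = 0.0415), a call made in 4 of 12 alternatives.

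Type I chains went the other way. COL1A1 stood at 24.7, 20.5 and 22 CPM in Csi and at 37.5, 40.1 and 36.7 CPM in siSMAD (0.77, SE 0.07, adjusted p = 1.86e-10), and COL1A2 at 36.3, 39.7 and 38.2 against 51.5, 49.8 and 48.6 CPM (0.39, SE 0.05, adjusted p = 8.86e-07). COL5A2 rose by 0.54 (SE 0.15, adjusted p = 0.00465) and COL12A1 by 0.24 (SE 0.04, adjusted p = 2.17e-05). COL5A1, at 644 ± 26.5 CPM in Csi and 631 ± 26.4 CPM in siSMAD, gave -0.04 (SE 0.04) and COL18A1 -0.09 (SE 0.04), neither past the test. The file names place siSMAD replicates 1 and 2 on another flow cell than the other 4 libraries, whereas the labels give 1 batch for all 6, and which holds was not settled. With a flow cell term, which leaves siSMAD replicate 3 to carry the contrast, 12 chains were called: COL5A2 (0.39, adjusted p = 0.189) and COL15A1 lost the call and COL18A1 gained it (-0.19, adjusted p = 0.00703).

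Of 39 modifying and receptor genes tested in siSMAD, 6 (15.4%) were higher and 12 (30.8%) lower, against 16.3% and 19.7% of all genes. ITGA2, the α2 subunit of a collagen-binding integrin, stood at 428, 450 and 428 CPM in Csi and at 263, 252 and 245 CPM in siSMAD (-0.79, SE 0.04, adjusted p = 1.96e-16). Its partner ITGB1 fell by 0.50, ITGA1 by 0.53 and LOX by 0.51, while ITGA10 rose by 0.54 and COLGALT2, a collagen galactosyltransferase, by 0.53.

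The TGFb and knockdown comparisons share no libraries and can be set side by side. The chains called higher with TGFb in both sphere lines numbered 5: COL4A1, COL4A2, COL4A6, COL7A1 and COL17A1. In siSMAD 4 of these 5 were lower and COL4A6 did not pass (-0.07, SE 0.16). Among all 3086 genes higher in both sphere lines and tested in MDA-MB-231, 37.6% were lower in siSMAD and 11.4% higher. COL16A1, the 1 chain lower in both sphere lines, gave -0.20 (SE 0.12) in siSMAD. This pairing was chosen after the values of each comparison were seen, and the comparisons differ in line, culture and treatment.

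Across all 6 comparisons 35 chains were tested at least once, 29 of them were called at least once, and 9 were never tested for lack of counts. In bulk RNA, a change in the share of cells with a transcript and a change in RNA per cell cannot be told apart.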

How the data were processed

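RNA was sequenced from 24 libraries, and the 16 further samples of the series were not analysed here. Per the labels and file headers, the authors used Trimmomatic for trimming, STAR for alignment to GRCh38 and featureCounts (Subread 2.0.0) for counting fragments over GENCODE v38 exons at a mapping quality of at least 30, without the strand option, although the kit marks strand. The deposited values are raw counts per gene, so fragments over 2 overlapping genes were left out and antisense reads were not separated. Symbols came from GENCODE v44 and matched 60463 of 60708 genes.

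Every comparison was fitted with its own libraries alone (12 for the interaction) by edgeR's quasi-likelihood test after filterByExpr and TMM scaling. P-values were adjusted by Benjamini-Hochberg across the genes tested, and a call was an adjusted p under 0.05. Fold changes are the second group over the first. Levels are CPM with TMM factors over all 24 libraries, and FPKM is CPM per kilobase of the exon length in the files. CPM differences on this scale lie above the fitted ones by 0.082 (log2) for MI-spheres and by at most 0.035 for the other comparisons. With 3 against 3 libraries an exact permutation test cannot go below p = 0.1. Replicates are numbered samples that no label ties to separate cultures, so p-values measure the spread between these samples, which may be technical. Counting intervals (95%) and floors cover counting error only.

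Alternatives were DESeq2, DESeq2 size factors, a fit without the filter, a stricter filter of 10 counts in each library, a replicate block, each library left out, a flow cell term for siSMAD and 1 fit of all sphere libraries. All members may be named. Full statistics were planned for up to 10 called chains with the smallest adjusted p per comparison, and some further chains were given them too. Of the modifying and receptor genes, up to 6 with the largest fold change in each direction were to be named. Some receptors with smaller changes were named as well. The members, gene lists and tests were chosen with earlier results of these data known. The fits were tested on simulated data.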

Additional observations from a re-analysis of the deposited data

Results flagged for a closer look

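For 10 chains the response to TGFβ1 differed between MII- and MI-spheres in the interaction test (edgeR, adjusted p under 0.05), given as the log2 response in MII- minus that in MI-spheres. The difference was positive for COL4A2 at 2.62, COL4A1 at 2.15, COL8A1 at 1.86 and COL12A1 at 1.69. It was negative for COL2A1 at -4.79, COL1A1 at -1.38, COL6A1 at -1.04, COL4A5 at -0.78, COL17A1 at -0.63 and COL5A2 at -0.39. COL2A1 had 3, 8 and 0 counts in untreated MII-spheres and 1, 0 and 0 with TGFb, against 98 over the 3 TGFb libraries of MI-spheres. It was too low to be tested in MII-spheres alone, so the size of its difference is poorly fixed. The COL2A1 call was made in 14 of 15 alternatives, and not without MII Ctrl replicate 2. COL8A1 stayed under 2.1 CPM in all sphere libraries and was called in 6 of 16 alternatives. COL5A2 was called in 16 of 17, and the other 7 in all 17 alternatives run.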

How the results depend on the processing

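Of 82 called chain and comparison pairs none changed direction in any alternative, and 12 lost the call in at least 1. The number of called chains changed by over 1.5 times only for SLUG KO against WT: 5 calls became 3 with at least 10 counts in every library, 3 with the replicate block, and between 2 and 14 with 1 library left out, with 14 only without WT replicate 2. The cause was not tested. Leaving out 1 library gave 15 to 18 calls in MI-spheres (15 with all), 15 to 17 in MII-spheres (16), 23 to 23 between lines (23), 9 to 15 for the interaction (10) and 12 to 13 in siSMAD (13). The other alternatives gave 12 to 21, 14 to 20, 17 to 26, 8 to 12 and 12 to 14.

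Replicate numbers did not pair the samples: same-numbered libraries correlated in their deviations at -0.272 to 0.0906. With the replicate block the calls numbered 16 in MI-spheres, 16 in MII-spheres, 23 between lines, 12 for the interaction, 3 for SLUG KO and 14 for siSMAD. Depth limits chains under 0.1 FPKM, and the spread of the WT libraries limits SLUG KO calls.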
